A study of Mus musculus with 6 samples.

Results

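The 10 transcription factors of mesenchymal cells Tbx18, Osr1, Osr2, Twist1, Twist2, Prrx1, Tcf21, Snai2, Zeb1 and Zeb2 were followed in RNA sequencing libraries of GC-1 spg cells. They were taken by symbol, 10 rows of 57180 in the deposited gene table, and they were chosen with the contrast between the 2 groups in view. Their fold changes, and the calls they received in the fit over all genes, are therefore a description and no independent test. GC-1 spg is an immortalised mouse line derived from type B spermatogonia, labelled as a germ cell from testis. Cells of the first group were labelled SNHG1 overexpression (3 libraries, SNHG1 being a host gene of small nucleolar RNAs and itself a long non-coding transcript) and the control cells carried the empty vector (3 libraries). Both groups were collected 24 hours after transfection, and all 6 libraries carry the same treatment label, non-obstructive azoospermia, without a word on what was done. The labels name neither the promoter nor the sequence of the construct, nor whether replicates were separate cultures, so that p-values reflect only how far these libraries differ, possibly for technical reasons.

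These factors bind DNA to set or hold mesenchymal identity, the loosely attached, matrix-producing state of embryonic connective tissue and of fibroblasts. Osr1, Osr2, Tbx18, Prrx1 and Tcf21 pattern the mesoderm and its organs. Twist1 and Twist2 are basic helix-loop-helix proteins that pair with the widely expressed E proteins. Snai2, Zeb1 and Zeb2 are zinc finger repressors that bind E-boxes in epithelial genes such as Cdh1, the gene of E-cadherin, and are best known for epithelial-mesenchymal transition. In the testis such factors are associated mainly with the somatic cells and their precursors.

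Library totals lay between 15521900 and 21095427 counts, which makes 1 count worth 0.0474 to 0.0644 CPM (counts per 1000000 counts of the library). Snhg1 (ENSMUSG00000108414, chromosome 19, 8700801 to 8703811, coordinates here and below as deposited, with no build named) checks the labels. It stood at 25.2 ± 1.19 CPM in the libraries labelled overexpression and 23.0 ± 2.63 CPM in the vector controls (SD, n = 3 each), with a log2 fold change of 0.14 ± 0.10 (SE) and an edgeR adjusted p of 0.52. An increase of the mouse gene was not detected, so higher and lower refer to the groups as labelled. The first of the SNHG1-labelled libraries stood apart on the second principal component, at 28.69 against -9.10 and -13.76 for the other two. Of 17 germ line markers, 11 were at 0 in all 6 libraries, among them Ddx4, Kit, Zbtb16 and Sall4, and the list summed to 2.23 to 3.34 CPM in the SNHG1-labelled libraries and 1.87 to 2.39 CPM in the vector controls. Of 9 mesenchymal markers 6 passed the low-count filter, while Dcn had 20 counts over all 6 libraries and Lum and Thy1 were at 0. That list summed to 20138 to 20972 CPM in the SNHG1-labelled libraries and 23782 to 25183 CPM in the vector controls. Col1a2, a chain of collagen I, was its most abundant gene. These defining markers go against the germ cell label.

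Of the 10 factors, 9 were detected and passed the low-count filter, and Tcf21 was at 0. In the fit over all 14605 tested genes, edgeR called 3 of the 9 lower in the SNHG1-labelled libraries (Tbx18, Osr1 and Prrx1) and 0 higher, where it called 0.856% of all tested genes lower, 1.54% higher and 2.4% in either direction. DESeq2 called 3 of the 9 too, and 5.01% of the genes to which it gave an adjusted p. Without labelled replicate 1 edgeR called 3 of the 9, of 807 called genes in all against 350. It called 2 of the 9 without labelled replicate 2 (162 genes in all) and 1 without labelled replicate 3 (176 genes) or vector replicate 1 (123), 2 (151) or 3 (143), and 1 with no filter. The other 6 were not called, at Benjamini-Hochberg adjusted p under 0.05. In 5 of the 9 every labelled library lay below every vector library, which held for 12.3% of all tested genes. In 1 of the 9 every labelled library lay above, against 11.3% of all genes, and in 3 the groups overlapped. The median log2 fold change was -0.24 over the 9 factors and 0.007 over all tested genes. Nothing is read from these counts, since the factors were picked on this contrast. Together the 10 factors took 0.148%, 0.128% and 0.13% of the counts in labelled replicates 1, 2 and 3, against 0.171%, 0.167% and 0.173% in vector replicates 1, 2 and 3. In a bulk sample, fewer cells that express a gene and less of its RNA per cell cannot be told apart.

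**Figure D1:**
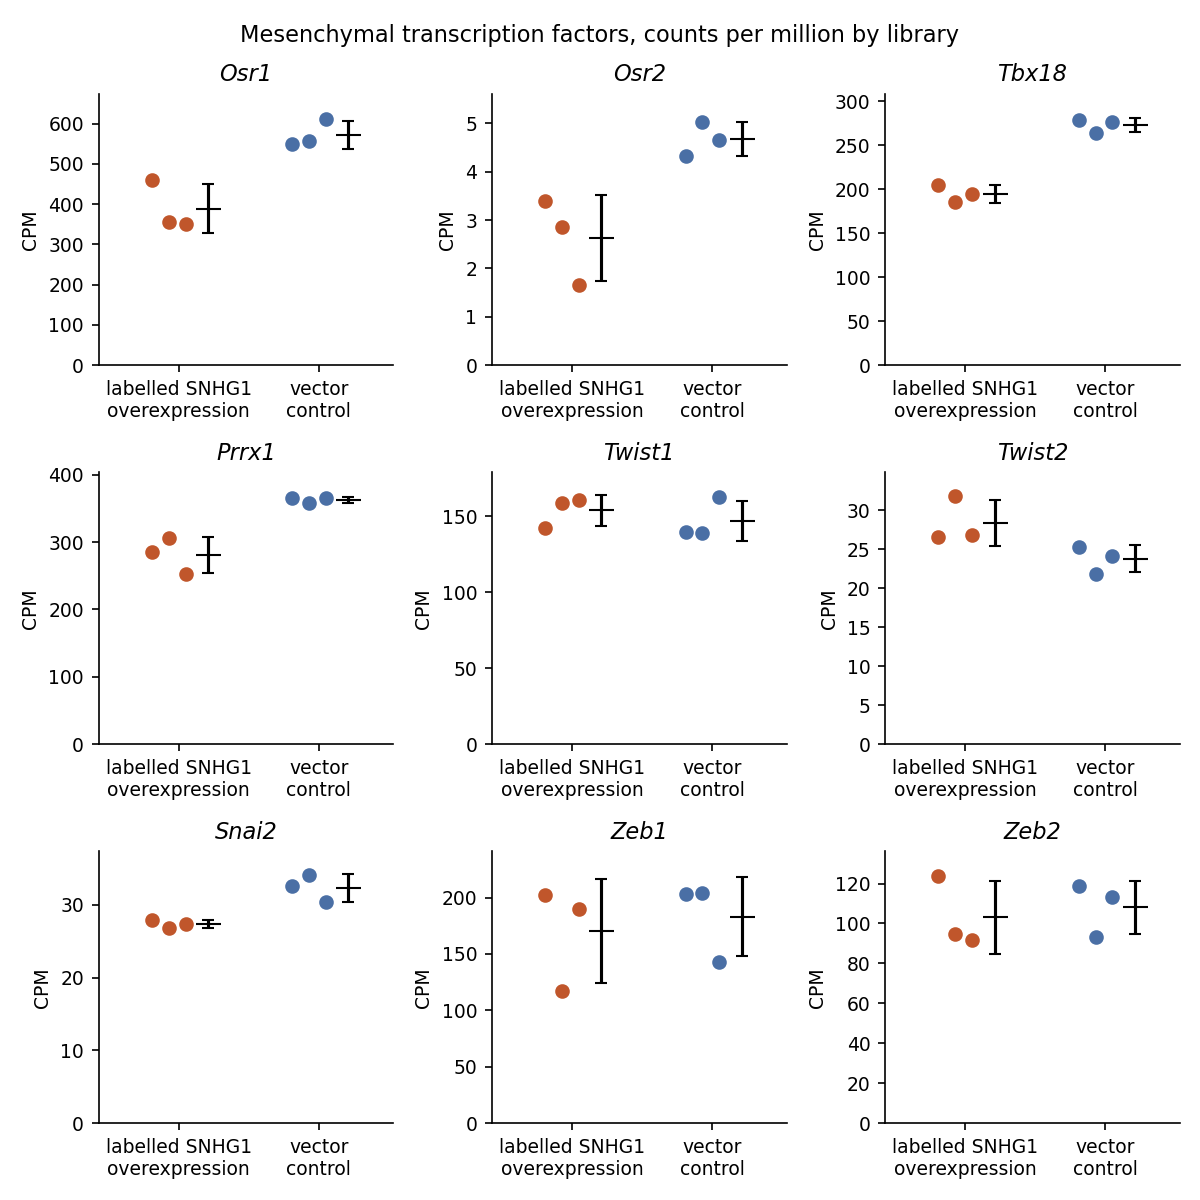
CPM (vertical axes, linear and starting at 0, scaled per gene) of the 9 detected factors in the 3 libraries labelled SNHG1 overexpression (orange) and the 3 vector controls (blue), with the mean and SD of each group as black bars. The groups do not overlap for Osr1, Osr2, Tbx18, Prrx1 and Snai2, which lie lower in the SNHG1-labelled libraries, nor for Twist2, which lies higher, and they overlap for Twist1, Zeb1 and Zeb2.

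Promoter sequences were at hand for 6 of the 10 factors. They are RefSeq windows on GRCm38.p6, each of 300 bases, running from 250 before to 50 after the annotated start, and there were none for Osr1, Osr2, Snai2 and Zeb1. The windows of Tbx18 and Prrx1, called lower, and of Twist1 and Twist2, not called, are shown for comparison, 5′ to 3′ on the strand of the gene, with every CG pair in capitals.
Tbx18: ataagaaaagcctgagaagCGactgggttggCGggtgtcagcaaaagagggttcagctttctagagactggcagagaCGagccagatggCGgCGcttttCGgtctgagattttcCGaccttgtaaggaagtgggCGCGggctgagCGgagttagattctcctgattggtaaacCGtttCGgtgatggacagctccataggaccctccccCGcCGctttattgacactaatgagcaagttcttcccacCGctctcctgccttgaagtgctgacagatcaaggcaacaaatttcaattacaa
Prrx1: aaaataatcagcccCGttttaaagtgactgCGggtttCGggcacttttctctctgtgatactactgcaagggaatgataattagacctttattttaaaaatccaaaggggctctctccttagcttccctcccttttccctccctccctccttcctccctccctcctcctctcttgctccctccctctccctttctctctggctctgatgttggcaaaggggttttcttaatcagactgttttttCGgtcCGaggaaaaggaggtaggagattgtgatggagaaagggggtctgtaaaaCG
Twist1: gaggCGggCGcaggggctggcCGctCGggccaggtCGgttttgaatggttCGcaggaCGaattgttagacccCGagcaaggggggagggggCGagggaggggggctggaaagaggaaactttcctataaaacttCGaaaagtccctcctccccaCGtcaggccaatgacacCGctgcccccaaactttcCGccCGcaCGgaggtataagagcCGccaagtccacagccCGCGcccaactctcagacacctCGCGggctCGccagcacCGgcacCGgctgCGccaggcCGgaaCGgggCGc
Twist2: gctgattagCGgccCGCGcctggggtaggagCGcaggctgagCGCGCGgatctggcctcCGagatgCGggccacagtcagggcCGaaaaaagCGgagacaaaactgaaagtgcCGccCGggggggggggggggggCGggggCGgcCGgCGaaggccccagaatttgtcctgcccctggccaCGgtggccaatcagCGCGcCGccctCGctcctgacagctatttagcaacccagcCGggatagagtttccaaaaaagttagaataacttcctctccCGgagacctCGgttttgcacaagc
These lie at chr9:87731211-87731510 (minus strand), chr1:163313601-163313900 (minus strand), chr12:33957421-33957720 (plus strand) and chr1:91801211-91801510 (plus strand) in that order, and these coordinates cannot be set against those of the deposited table, whose build is not named. The Twist windows are dense in CG pairs, with 27 in Twist1 at 66% G+C and 25 in Twist2 at 64.7%, more than 84.5% and 81.6% of all 32851 windows. The window of Tbx18 holds 15 CG pairs at 51.7% G+C and that of Prrx1 6 at 47.7%, beside medians of 7 pairs and 52.7% over all windows.

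Several motifs were searched on both strands. The general E-box CANNTG, the site of Twist, Snail and Zeb proteins, was found in 1 of the 9 windows of these factors (Zeb2 has 4), as CAGATG at 168 bases before the start of Tbx18, where 72.3% of all windows hold it. Its form CACCTG, a subset of CANNTG that Snail and Zeb proteins prefer, was in none of the 9, and 20.2% of all windows hold it. TATAAA was found once, in Twist1 at 126 bases before the start (13.6% of all windows). TGANTCA, the site of AP-1, was found as a pair in a single Zeb2 window, 189 and 132 bases before the start (7.81% of all windows). The kappaB consensus was in none (8.46% of all windows). A match is a description of letters, and a missing match says nothing of the factor that binds it.

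Between genes, levels were compared per length with the deposited FPKM values (fragments scaled to transcript length and library total). In the vector controls Osr1 was the highest of the 9 factors at 221 ± 13.3 FPKM, above 98.7% of tested genes. Twist1 followed at 90.4 ± 8.15 FPKM, Tbx18 at 56.9 ± 1.57, Prrx1 at 22.7 ± 0.268, Snai2 at 16.0 ± 0.926, Zeb1 at 10.9 ± 2.07, Twist2 at 6.16 ± 0.434, Zeb2 at 3.14 ± 0.388 and Osr2 at 0.764 ± 0.0582 FPKM (SD, n = 3 each). No vector library of a factor overlapped those of the next factor in this order. Neighbours differed by 1.42-fold (Prrx1 over Snai2) to 4.11-fold (Zeb2 over Osr2).

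The length behind FPKM moves part of this order. Count divided by FPKM and library total implies 16.0 kb for Prrx1, 16.7 kb for Zeb1, 34.4 kb for Zeb2 and 6.11 kb for Osr2, whereas the longest coding transcripts of the GENCODE M21 annotation are 6.53, 5.8, 9.12 and 1.72 kb. For Twist1, Tbx18 and Snai2 the lengths were close, at 1.63 against 1.63 kb, 4.8 against 4.68 kb and 2.02 against 2.02 kb. On CPM per kilobase of those transcripts, Osr1 (284), Twist1 (90.5), Tbx18 (58.4) and Prrx1 (55.7) stayed on top and Osr2 (2.71) at the bottom. Zeb1 (31.5) then stood above Snai2 (16.0), and Zeb2 (11.9) above Twist2 (9.42).

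**Figure D2:**
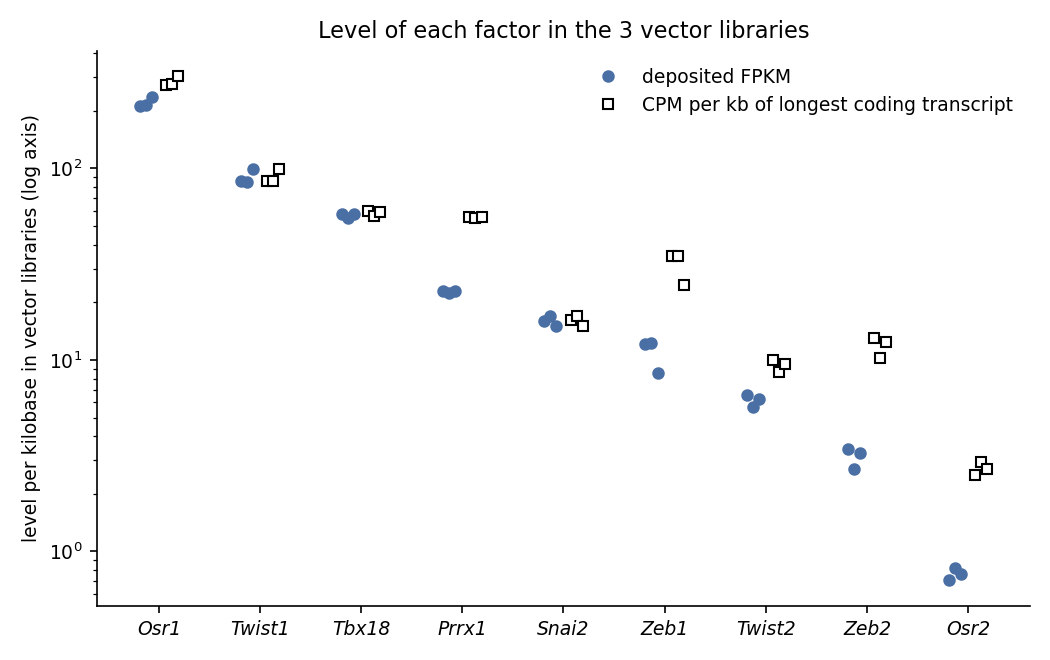
Level per kilobase (vertical axis, log scale) of each detected factor in the 3 vector controls, as deposited FPKM (filled circles) and as CPM per kilobase of the longest coding GENCODE M21 transcript (open squares). Both scales put Osr1 highest, near 221 FPKM, and Osr2 lowest, near 0.764 FPKM, and they differ most for Prrx1, Zeb1, Zeb2 and Osr2.

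Among the mesodermal patterning factors, Osr1 was lower in the SNHG1-labelled libraries. It is an odd-skipped zinc finger protein needed for the intermediate mesoderm that gives rise to kidney and gonad (ENSMUSG00000048387, chromosome 12, 9620116 to 9631500 in the deposited table). Osr1 stood at 460, 356 and 350 CPM in labelled replicates 1, 2 and 3, against 549, 556 and 611 CPM in the vector controls. The first labelled library was the highest of its group and still below every vector library. Means were 389 ± 61.5 CPM in the SNHG1-labelled libraries and 572 ± 33.9 CPM in the vector controls (SD with n = 3 each), a log2 fold change of -0.56 ± 0.11 (SE). Without labelled replicate 1 it was -0.70. The call of Osr1 was lost in 8 of 15 alternatives, among them those without labelled replicate 2 (log2 fold change -0.50) or 3 (-0.49) and without vector replicate 1 (-0.59), 2 (-0.58) or 3 (-0.51) and that with no filter (-0.55).

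Osr2, the paralog that shapes the secondary palate in mouse (ENSMUSG00000022330, chromosome 15, 35296244 to 35303451), had the lowest FPKM of the 9 factors. Its counts were 66, 60 and 32 in the SNHG1-labelled libraries against 91, 78 and 86 in the vector controls, which is 3.39, 2.85 and 1.66 CPM for SNHG1-labelled cells and 4.33, 5.03 and 4.66 CPM for vector controls. All SNHG1-labelled libraries lay lower, with labelled replicate 3 the lowest. The log2 fold change of -0.82 ± 0.24 (SE) was the most negative of the 9 factors and was not called. It ran to -1.04 without labelled replicate 1 and to -0.58 without labelled replicate 3. The FPKM of Osr1 was 296 to 499 times that of Osr2 in the SNHG1-labelled libraries and 261 to 310 times in the vector controls, a ratio that carries the implied length of Osr2.

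Tbx18 was lower, with the smallest SE of the 9 factors. This T-box repressor marks the epicardium, the sinus node precursors and the mesenchyme of the ureter (ENSMUSG00000032419, chromosome 9, 87584853 to 87613313). It stood at 205, 185 and 194 CPM in the SNHG1-labelled libraries, against 279, 264 and 276 CPM in the vector controls. The spread within a group was small beside the gap between the groups. Means were 194 ± 10.1 CPM in the SNHG1-labelled libraries and 273 ± 7.89 CPM in the vector controls (SD with n = 3 each), with a log2 fold change of -0.49 ± 0.06 (SE). Tbx18 kept its call in all 15 alternatives, with log2 fold changes between -0.53 and -0.46. An overlapping row of unknown function (D030062O11Rik) held 2.57% as many counts and had a log2 fold change of 0.01 ± 0.13.

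Prrx1, the paired-related homeobox factor of limb and craniofacial mesenchyme (ENSMUSG00000026586, chromosome 1, 163072688 to 163141279), was lower as well. It stood at 285, 306 and 252 CPM in the SNHG1-labelled libraries against 366, 358 and 366 CPM in the vector controls. The vector controls nearly coincided and the labelled ones spread below them. Means were 281 ± 27.0 CPM in the SNHG1-labelled libraries and 363 ± 4.59 CPM in the vector controls (SD with n = 3 each), with a log2 fold change of -0.37 ± 0.07 (SE). The call of Prrx1 was lost in 8 of 15 alternatives, among them those without labelled replicate 3 (log2 fold change -0.30) and without vector replicate 1 (-0.37), 2 (-0.39) or 3 (-0.37), with no filter (-0.36), and with trends on GC content and length removed (-0.28). Across 13084 genes the log2 fold change was higher at higher GC content (Spearman rho 0.323) and lower for longer transcripts (rho -0.219), a description across genes that are not independent replicates. The longest coding Prrx1 transcript is 6.53 kb long at 43.6% G+C, and that of Osr1, which went to -0.63 with the trends removed, is 2.01 kb long at 57.0%.

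Tcf21, a basic helix-loop-helix factor of epicardial, kidney, lung and gonadal mesenchyme (ENSMUSG00000045680, chromosome 10, 22693180 to 22696073), had 0 counts in all 6 libraries. At these depths a 0 leaves room for as many as 3 counts, or 0.142 to 0.193 CPM per library. No fold is given.

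Both Twist genes had positive log2 fold changes, that of Twist1 turning negative with GC and length trends removed. Twist1 acts in cranial mesenchyme and limb buds (ENSMUSG00000035799, chromosome 12, 34007670 to 34009828). It stood at 142, 159 and 161 CPM in the SNHG1-labelled libraries and 140, 139 and 163 CPM in the vector controls. The groups overlapped, with a log2 fold change of 0.06 ± 0.08 (SE) that went to -0.03 with those trends removed. Over the fits that leave out a library it ran from 0.02, without vector replicate 2, to 0.14, without vector replicate 3, and it was 0.12 without labelled replicate 1. Twist2, its dermal relative (ENSMUSG00000007805, chromosome 1, 91729183 to 91775750), stood at 26.6, 31.8 and 26.8 CPM in the SNHG1-labelled libraries against 25.3, 21.9 and 24.2 CPM in the vector controls. Every labelled library of Twist2 lay above every vector library, by a log2 fold change of 0.25 ± 0.10 (SE) that was not called.

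The Twist2 row overlaps Gm29100, a lncRNA row with 87, 121 and 102 counts in the SNHG1-labelled libraries and 83, 43 and 76 in the vector controls, 16.9% as many as Twist2 itself. Gm29100 had a log2 fold change of 0.51 ± 0.19 (edgeR adjusted p = 0.226). The sources used here do not say whether the counting used strand, so reads of overlapping rows may be shared. The FPKM of Twist1 was 11.8 to 14.2 times that of Twist2 in the SNHG1-labelled libraries and 13.1 to 15.9 times in the vector controls. That ratio carries the implied length of Twist2, 3.85 kb against 2.52 kb for its longest coding GENCODE M21 transcript.

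Of the E-box repressors, Snai2 was the one whose groups did not overlap. Snai2, also called Slug, is known from neural crest and from epithelial-mesenchymal transition (ENSMUSG00000022676, chromosome 16, 14523716 to 14527249). It stood at 27.9, 26.8 and 27.4 CPM in the SNHG1-labelled libraries against 32.5, 34.1 and 30.4 CPM in the vector controls. Every labelled library lay below every vector library, with means of 27.3 ± 0.556 CPM in the SNHG1-labelled libraries and 32.3 ± 1.87 CPM in the vector controls (SD with n = 3 each). The log2 fold change of -0.24 ± 0.07 (SE) was not called in any alternative, where it ran from -0.29 to -0.18.

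Zeb1 (ENSMUSG00000024238, chromosome 18, 5591860 to 5775467) and Zeb2 (ENSMUSG00000026872, chromosome 2, 44873644 to 45007407) are the large zinc finger and homeodomain repressors that the miR-200 family restrains in epithelia. Zeb1 stood at 202, 117 and 190 CPM in the SNHG1-labelled libraries and 203, 204 and 143 CPM in the vector controls. A single library was low in each group, labelled replicate 2 and vector replicate 3, and the groups overlapped. The range of Zeb1 was 0.79 on the log2 scale within the SNHG1-labelled libraries and 0.51 within the vector controls, beside medians of 0.15 and 0.11 over 2355 genes of at least 100 CPM. Of those genes 1.83% had a wider range within the SNHG1-labelled libraries and 3.1% within the vector controls. The log2 fold change of Zeb1 was -0.11 ± 0.21 (SE). It was -0.26 without labelled replicate 1, 0.10 without labelled replicate 2 and -0.20 without labelled replicate 3, and -0.03, -0.03 and -0.27 without vector replicates 1, 2 and 3.

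Zeb2 stood at 124, 94.6 and 91.5 CPM in the SNHG1-labelled libraries and 119, 93.0 and 113 CPM in the vector controls. The groups overlapped, the log2 fold change was -0.07 ± 0.13 (SE), and it turned positive in 4 of the 15 alternatives. Over the fits that leave out a library it ran from -0.22, without labelled replicate 1, to 0.02, without labelled replicate 3. The antisense row Zeb2os held 4.54% as many counts as Zeb2 and had a log2 fold change of -0.25 ± 0.23 (edgeR adjusted p = 0.619).

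**Figure D3:**
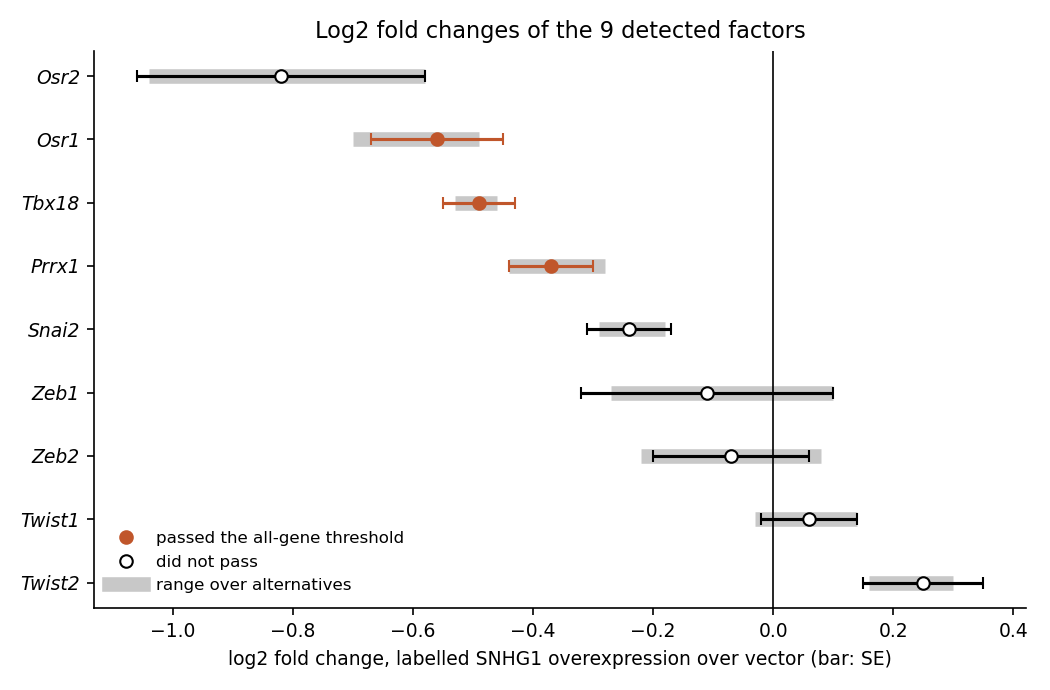
Log2 fold change of each detected factor, libraries labelled SNHG1 overexpression over vector controls (horizontal axis), with its SE as a bar and the range over the 15 alternatives as a grey band. Filled orange points passed the threshold over all genes (Osr1, Tbx18 and Prrx1), open points did not, and the bands of Zeb1, Zeb2 and Twist1 cross 0.

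Of 18 listed relatives of these factors 7 were tested and 8 were at 0 in every library. edgeR called 0 of these relatives (2.4% of all tested genes), with 3 at an unadjusted p under 0.05 (17% of all tested genes). DESeq2 called 1 of the relatives and limma-voom 0, and the median log2 fold change was -0.19. Snai1, the paralog of Snai2, stood at 38.9, 37.4 and 34.5 CPM in the SNHG1-labelled libraries against 30.0, 27.8 and 33.6 CPM in the vector controls. It lay higher where Snai2 lay lower, with a log2 fold change of 0.28 ± 0.09 (edgeR adjusted p = 0.177), and neither was called. With GC and length trends removed the log2 fold changes were 0.19 for Snai1 and -0.18 for Snai2. Zfhx4, a large zinc finger homeodomain protein, averaged 181 ± 15.2 CPM in the SNHG1-labelled libraries and 255 ± 42.2 CPM in the vector controls (SD, n = 3 each). Its log2 fold change of -0.50 ± 0.12 missed the edgeR threshold (adjusted p = 0.086) and was the one that DESeq2 called.

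The other relatives were closer to 0 or had wider errors. Zfhx3 had a log2 fold change of -0.25 ± 0.10, Prrx2 of -0.19 ± 0.14, Scx of -0.37 ± 0.38, Shox2 of -0.14 ± 0.18 and Zfhx2 of -0.01 ± 0.14. Of 15 other T-box genes with a row, 5 were tested, and edgeR and DESeq2 called 0, with 0 at an unadjusted p under 0.05. Tbx15, a T-box gene of skin and skeletal mesenchyme, stood at 43.2 ± 0.898 CPM in the SNHG1-labelled libraries and 47.3 ± 1.68 CPM in the vector controls (SD, n = 3 each), a log2 fold change of -0.13 ± 0.06. Tbx2 (-0.34 ± 0.20), Tbx3 (0.29 ± 0.13), Tbx6 (0.16 ± 0.19) and Mga (-0.13 ± 0.07), on the same log2 scale, were not called either.

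The E protein partners of the Twist proteins held no call, and the Id inhibitors held 1. Of 7 E protein and Id genes 6 were tested and 1, Id2, was called, where 2.4% of all tested genes were called. The E proteins Tcf3, Tcf4 and Tcf12, with which Twist and other helix-loop-helix factors dimerise, had log2 fold changes of 0.08 ± 0.10, -0.13 ± 0.07 and -0.22 ± 0.14 and were not called. Id2, an inhibitor that binds E proteins and lacks a DNA-binding region, fell to 7.16 ± 0.798 CPM in the SNHG1-labelled libraries, against 12.2 ± 1.94 CPM in the vector controls (SD, n = 3 each). Its log2 fold change was -0.77 ± 0.15 (edgeR adjusted p = 0.0417), and the call was lost in 9 of the 15 alternatives, each of the 6 that leave out a library among them (log2 fold changes of -0.86 to -0.63 in those 6).

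A wider list of 76 mesenchymal transcription factors, with 51 tested, held 1 gene called higher, 2 lower and a median log2 fold change of -0.03. Over all tested genes edgeR called 1.54% higher and 0.856% lower. DESeq2 called 11 of the 51, and 5.01% of the genes to which it gave an adjusted p. An unadjusted edgeR p under 0.05 was found for 14, beside 17% of all tested genes. Runx1, a Runt factor of blood and mesenchyme, rose to 68.7, 58.0 and 58.2 CPM in the SNHG1-labelled libraries, against 36.7, 38.9 and 39.0 CPM in the vector controls. That is a log2 fold change of 0.69 ± 0.08 (edgeR adjusted p = 0.00567). Sox4, an SRY-related factor of progenitor cells, fell to 245, 205 and 203 CPM in the SNHG1-labelled libraries, against 331, 328 and 351 CPM in the vector controls, a log2 fold change of -0.63 ± 0.08 (edgeR adjusted p = 0.0083). Both kept their call in all 15 alternatives.

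The proteins through which Snail and Zeb factors repress, and those that mark them for decay, held no edgeR calls at the RNA level. Of all tested genes 2.4% were called. All 24 corepressors and chromatin modifiers were tested, edgeR and DESeq2 called 0 (4 at an unadjusted p under 0.05), and the median log2 fold change was 0.00. Of 23 kinases, ubiquitin ligases and related modifiers 22 were tested, edgeR called 0 (3 at an unadjusted p under 0.05), DESeq2 called 1, and the median was -0.01. Among abundant genes, Smarca4 of the corepressors had a log2 fold change of 0.07 ± 0.08, and Trim28 and the phosphatase subunit Ppp1ca of the second list had 0.10 ± 0.05 and 0.09 ± 0.06.

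Epithelial genes, the classical targets of repression by Snai2 and the Zeb proteins, were mostly at or near 0 in both groups. Of 43 listed, 16 were at 0 in all libraries, 24 had under 10 counts over the 6 libraries and 10 were tested. The list still summed to 762 to 861 CPM in the SNHG1-labelled libraries and 802 to 864 CPM in the vector controls. Its most abundant genes, not called, were Lama5 (means of 400 CPM in the SNHG1-labelled libraries and 416 CPM in the vector controls) and Tjp1 (231 and 240 CPM). Cdh1 had 13 counts over all 6 libraries, and the simple epithelial keratins Krt8 and Krt18 had 28 and 2. Jup, which encodes plakoglobin of desmosomes and adherens junctions, was the single one called, where 2.4% of all tested genes were called. It fell to 47.0 ± 3.29 CPM in the SNHG1-labelled libraries, against 65.6 ± 2.71 CPM in the vector controls (SD, n = 3 each), a log2 fold change of -0.48 ± 0.07 (edgeR adjusted p = 0.0154) that lost its call in 4 alternatives, among them those without labelled replicate 3 and vector replicates 1 and 3 (-0.53 to -0.43 over the fits that leave out a library). The median of the 10 was 0.01.

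Mesenchymal genes that were called were mostly lower. Of 49 matrix, adhesion and cytoskeletal genes 39 were tested, with 9 called lower and 1 higher. DESeq2 called 15 of the 39, and 5.01% of the genes to which it gave an adjusted p. Of all tested genes 0.856% were called lower and 1.54% higher. The median log2 fold change of the list was -0.19, beside 0.007 over all genes. Called genes of the list include Col1a2, Pdgfra and Ddr2 of the mesenchymal markers whose summed level is given above. Thbs1, a matricellular glycoprotein, fell by 1.28 ± 0.19 on the log2 scale (edgeR adjusted p = 0.0154) and lost its call without labelled replicate 2 or 3 (-1.40 to -1.07 over the fits that leave out a library). Ccn2, a connective tissue growth factor, fell by 0.59 ± 0.11 (edgeR adjusted p = 0.0368), a call lost in 8 alternatives, among them those without labelled replicate 2 or 3 or any 1 vector library (-0.65 to -0.55). Col3a1, the chain of collagen III, fell to 558, 499 and 473 CPM in the SNHG1-labelled libraries, against 713, 722 and 765 CPM in the vector controls, a log2 fold change of -0.52 ± 0.07 (edgeR adjusted p = 0.0103). The call of Col3a1 was lost without labelled replicate 2 and without vector replicate 3 (log2 fold changes of -0.51 and -0.50).

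Pdgfra, the receptor for PDGF-A that marks fibroblasts, went the other way. It rose to 310, 267 and 287 CPM in the SNHG1-labelled libraries, against 217, 205 and 202 CPM in the vector controls, a log2 fold change of 0.47 ± 0.07 (edgeR adjusted p = 0.0143) that lost its call without vector replicate 1 (0.50), 2 (0.45) or 3 (0.45). Vim, the intermediate filament gene used as a mesenchymal marker, stood at 1764 ± 39.2 CPM in the SNHG1-labelled libraries and 2024 ± 65.2 CPM in the vector controls (SD, n = 3 each) and was not called (-0.20 ± 0.05, edgeR adjusted p = 0.0768). N-cadherin (Cdh2) was at 110 ± 3.19 CPM in the SNHG1-labelled libraries and 121 ± 4.44 CPM in the vector controls and was not called.

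Signals known to act on these factors were split. Of 46 ligands, receptors and mediators 39 were tested, with 3 called higher, 1 lower and a median log2 fold change of 0.03. The shares over all tested genes were 1.54% higher and 0.856% lower. DESeq2 called 7 of the 39, and 5.01% of the genes to which it gave an adjusted p. An unadjusted edgeR p under 0.05 was found for 14, beside 17% of all tested genes. Nfkb1, a subunit of NF-kappaB, rose to 186, 192 and 176 CPM in the SNHG1-labelled libraries, against 83.0, 86.0 and 86.5 CPM in the vector controls (log2 fold change 1.12 ± 0.06, edgeR adjusted p = 3.76e-05). Stat3, the transducer of IL-6 family cytokines, rose by 0.55 ± 0.06 (edgeR adjusted p = 0.00311), and the receptor Fgfr1 by 0.50 ± 0.06 (edgeR adjusted p = 0.00486), both on the log2 scale. These 3 kept their calls in all 15 alternatives. Spry1, a feedback inhibitor of receptor tyrosine kinases, fell to 7.55 ± 0.706 CPM in the SNHG1-labelled libraries, against 13.4 ± 0.888 CPM in the vector controls (SD, n = 3 each; log2 fold change -0.83 ± 0.11, edgeR adjusted p = 0.0114), a call lost without vector replicate 1 (-0.85) or 3 (-0.78).

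**Figure D4:**
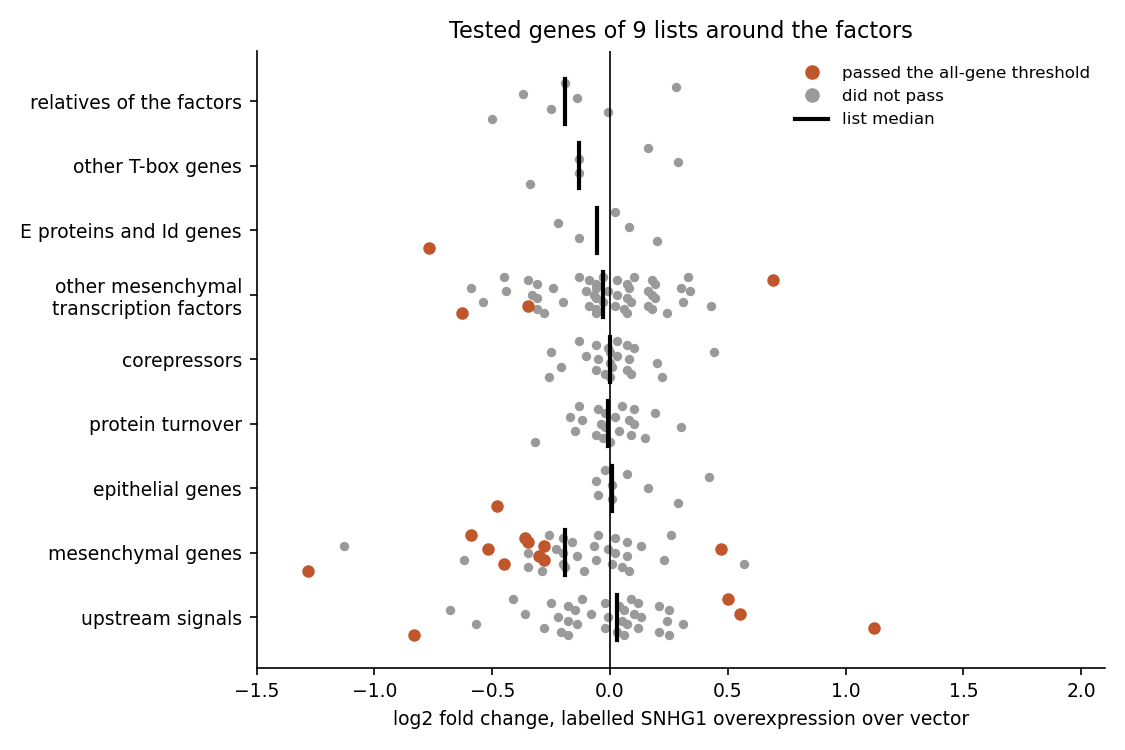
Log2 fold change (horizontal axis), libraries labelled SNHG1 overexpression over vector controls, of each tested gene in 9 lists around the factors, with genes past the threshold over all genes in orange, the others in grey and the list median as a black line. Of 39 tested mesenchymal genes 9 were called lower and 1 higher. Relatives, other T-box genes, corepressors and turnover genes hold 0 calls among 7, 5, 24 and 22 tested genes. Of all tested genes 2.4% were called, and the lists were drawn up with earlier results of these data known.

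Over the 9 lists, 201 of 300 genes were tested and 19 were called, which is 9.45%, beside 2.4% of all tested genes. The number called was 33 without labelled replicate 1, 10 without labelled replicate 2 or 3, and 8, 12 and 7 without vector replicates 1, 2 and 3. The lists were drawn up with earlier results of these data known, so this share is given as a description.

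Summed levels of the remaining marker lists overlapped between the groups, except those of the macrophage list, where Cd14 made most of the difference. Sertoli markers summed to 646 to 742 CPM in the SNHG1-labelled libraries and 627 to 653 CPM in the vector controls, 3 of 10 being at 0. Most of that was Rhox5, at 593 CPM in the SNHG1-labelled libraries and 533 CPM in the vector controls, which was not called. Peritubular myoid markers summed to 45.6 to 48.7 CPM in the SNHG1-labelled libraries and 43.6 to 49.1 CPM in the vector controls, with 0 of 8 at 0. Leydig markers summed to 2.46 to 3.06 CPM in the SNHG1-labelled libraries and 2.43 to 2.87 CPM in the vector controls, with 5 of 8 at 0. Endothelial markers summed to 7.59 to 9.44 CPM in the SNHG1-labelled libraries and 6.9 to 9.8 CPM in the vector controls, with 3 of 8 at 0. Macrophage markers summed to 44.6 to 50.1 CPM in the SNHG1-labelled libraries and 36.2 to 36.6 CPM in the vector controls, with 1 of 13 at 0, 5 under 10 counts and Cd14 called higher. Of the 5 tested, Cd14 averaged 24.3 CPM in the SNHG1-labelled libraries and 14.4 CPM in the vector controls. Lyz2 averaged 15.3 CPM in both. The others, not called, had log2 fold changes of 0.64 (Cd68), -0.47 (Csf1r) and -0.18 (Aif1). The part of any marker list in the lower levels of Tbx18, Osr1 and Prrx1 was not tested.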

How the data were processed

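The libraries were poly(A)-selected with a stranded kit, per the labels' protocols. The authors deposited 1 table that gives each of 6 libraries a column of whole counts and a column of FPKM. HISAT2, SAMtools 1.3.1 and StringTie are named, with the human build GRCh38, per the submitters' processing notes, although every row (57180) has a mouse Ensembl identifier. Not given in the sources used here are the counting tool, its use of strand and the coordinates' build. Libraries were grouped by their titles. All rows with an identifier were kept, and 525 of them lack a symbol (0.194% of the counts). In all, 0 columns of per-sample values were left unused.

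The deposited counts were fitted with edgeR 4.0.16 in R 4.3.3 (quasi-likelihood F test), with TMM normalization, filterByExpr and a group term alone, and with Benjamini-Hochberg adjustment over 14605 genes at 0.05. CPM was computed with TMM factors. Fold changes carry standard errors and CPM values standard deviations. The edgeR standard errors were taken as the absolute log2 fold change over the square root of the F statistic. They thus restate that test and are no separate estimate. The limit of 3 counts behind a 0 covers counting error alone, because PCR duplicates are not separate molecules. No replicate was a copy of another: chi-square over degrees of freedom was 10.6 to 16.7 within groups.

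The members and all lists were chosen with earlier results of these data known. Named were all 10 factors, Snhg1, tested relatives, up to 3 genes per direction and list among called genes averaging 20 counts or more, and, where none passed, the 2 most abundant. The E proteins, Cdh1, Krt8, Krt18, Lama5, Tjp1, Vim, Cdh2, Gm29100, D030062O11Rik and Zeb2os were added outside that rule. On counts simulated for this comparison from 14605 genes, 14417 were tested, and edgeR called 84 of 100 genes given a 2-fold change and 53 of 100 given 1.5-fold, with 15 of 14405 unchanged genes called. Changed genes were drawn from those above 1 CPM, and genes were simulated independently, without trends on GC content and length. These rates therefore need not hold for the real libraries.

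Alternatives were scaling by median-of-ratios size factors or by total counts, no filter, 1 CPM in 3 libraries, DESeq2 1.42.0, limma-voom (limma 3.58.1), the replicate number as a block and leaving out each library. Removing trends on GC content and length, alone or with the block, and levels per kilobase of GENCODE M21 transcripts were chosen after seeing the data. Protein sequences were not analysed here. Some genes that the naming rule selects are not reported here.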

Additional observations from a re-analysis of the deposited data

How the results depend on the processing

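None of the 3 called factors, nor of the other called genes given with a fold change, turned its direction in any of the 15 alternatives, and another scaling moved the median log2 fold change of all genes by less than 0.1. Of the factors, Tbx18 kept its call in all 15, while Osr1 and Prrx1 each lost it in 8, those with the replicate block (-0.57 for Osr1 and -0.38 for Prrx1) and with the replicate block and GC and length trends removed (-0.64 and -0.29) included. The signs of Twist1, Zeb1 and Zeb2, none of them called, turned in at least 1 alternative.

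The number of factors called, 3, was 1 with no filter, 1 with the replicate block, 1 with the replicate block and GC and length trends removed, and 1 to 3 on leaving out each library. The 350 genes called overall became 646 with DESeq2 (5.01% of 12900 genes with an adjusted p), 163 with the replicate block, 159 with the replicate block and the trends removed, and 123 to 807 on leaving out each library. The 225 higher and 125 lower calls became 187 and 77 with no filter, 360 and 286 with DESeq2 and 121 and 42 with the replicate block. The 19 genes called on the lists became 37 with DESeq2, 11 with the replicate block and 7 to 33 on leaving out each library. The cause was not tested. Of 9 factors in the FPKM order, 3 kept their place by CPM, which ignores length, and 5 by CPM per kilobase of GENCODE M21 transcripts.

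Replicate numbers are shared only as labels. The deviations of same-numbered libraries from their group means had correlations of -0.004, -0.030 and -0.021. These show no pairing by number but cannot exclude one, since counting noise enters the deviations and differently numbered libraries were not compared.

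Depth limits Osr2, at 32 to 91 counts per library, and Tcf21, at 0. With 3 libraries a group, a factor not called is not shown to be equal between the groups.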
